A study of Rattus norvegicus with 2 samples.

Results

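The 10 genes described here are Atf4, which encodes the main transcription factor of the integrated stress response, 5 further genes of that response (Atf3, Ddit3, Trib3, Chac1 and Sesn2), the asparagine synthetase gene Asns, and the 3 genes of serine synthesis, Phgdh, Psat1 and Psph. They were chosen by symbol, and each was found as 1 row among the 18049 genes of the deposited table. Their levels were compared between rat oligodendrocyte precursor cells (OPCs) electroporated with siHsc70, an siRNA that targets Hsc70, and OPCs electroporated with the siRNA labelled siSCR. All cells were wild type and were taken by immunopanning from the cortex of pups at P2 to P4, with plates coated with antibodies to GalC and to A2B5. Both groups were then differentiated with thyroid hormone (T3, 60 nM) and without the PDGF-AA, bFGF and NT3 of the growth medium. The other listed supplements, among them CNTF, forskolin, insulin, B-27 and N2, are not described as removed. The cells were immature oligodendrocytes at day 2 of T3, according to the series' design. There was 1 library per group, so no test between the groups was possible, no p-value is given, and whether any difference exceeds the spread between cultures is unknown.

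In the integrated stress response, 4 kinases, each answering to a different stress, phosphorylate the translation factor eIF2. Most protein synthesis then slows, while translation of the Atf4 mRNA is raised through upstream reading frames. ATF4 pairs with C/EBP proteins at the C/EBP-ATF response element (CARE) and induces genes of amino acid supply, together with the feedback and death genes of the pathway. Because ATF4 is controlled largely in translation, its mRNA level is not a measure of the protein. Serine synthesis starts from a glycolytic intermediate and runs through PHGDH, PSAT1 and PSPH, and serine is used for one-carbon units, glycine and the sphingolipids that are abundant in myelin. The pathway is of clinical interest in oligodendrocytes because mutations in the eIF2B genes cause a leukodystrophy, vanishing white matter disease.

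The siRNA against Hsc70 has the sequence tcatgactgtcctcatcaa (5′ to 3′). Hsc70 is a chaperone encoded by Hspa8, and Hspa8 stood at 1399 CPM (siSCR) and 507 CPM (siHsc70), 2.76-fold lower in siHsc70. CPM are the deposited estimated counts, rounded and scaled to the library totals of 19085587 (siSCR) and 18130768 (siHsc70) with the TMM factors of edgeR, and the 13518 genes whose mean over both libraries was 1 CPM or more were called measured. Among the markers of the labelled cell type, 12 of 12 oligodendrocyte lineage genes were measured. Of these, 8 were at least 2-fold lower in siHsc70 by the rule given below, beside 5.14% of all measured genes. The summed level of the 12 was 3080 CPM in siHsc70 against 8496 CPM in siSCR. Markers of other cell types were also found. The summed levels in siSCR and siHsc70 were 4064 and 3436 CPM for 12 astrocyte genes, 427 and 336 CPM for 10 neuronal genes, and 43.4 and 107 CPM for 9 fibroblast and mural genes, with Lum at 0 counts in siHsc70. They were 3.07 and 4.89 CPM for 5 microglial genes, with Aif1 at 0 counts in siSCR, and 8.99 and 5.45 CPM for 5 endothelial genes, with Cdh5 at 0 counts in siHsc70. In bulk RNA, a different share of cells of one type cannot be told apart from a different RNA level per cell. The part of these cell type differences in the values below was not tested.

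The promoters of these genes can be read for the element that ATF4 binds. Promoter windows of 300 bases, from 250 bases before to 50 bases after the annotated start of the gene, were taken from RefSeq (rat build GRCr8) and matched by symbol for 9 of the 10 genes (not Atf3). The CARE core was searched as TGATGNAA on both strands, and the cyclic AMP response element as the palindrome TGACGTCA. Of all 33469 windows in the table, 3.98% held the first and 1.83% held the second. The CARE core was found in 2 of the 9 windows, those of Chac1 and Trib3, and TGACGTCA in 0 of 9, so no member's match overlapped the other motif. The windows of Chac1 and Trib3 are printed because they hold the match, and that of Psat1 because it was the member furthest lower in siHsc70. All are written 5′ to 3′ on the strand of the gene, and capitals mark the match (on the opposite strand in both genes, so that its reverse complement is seen here) and the single annotated first base.
Chac1 (chr3:126795881-126796180, plus strand): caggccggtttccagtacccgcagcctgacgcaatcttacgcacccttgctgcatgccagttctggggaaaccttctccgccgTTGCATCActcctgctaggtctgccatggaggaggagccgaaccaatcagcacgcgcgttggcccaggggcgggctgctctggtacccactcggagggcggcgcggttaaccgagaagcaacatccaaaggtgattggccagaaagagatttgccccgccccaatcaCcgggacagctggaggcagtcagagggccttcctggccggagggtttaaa
Trib3 (chr3:161275484-161275783, minus strand): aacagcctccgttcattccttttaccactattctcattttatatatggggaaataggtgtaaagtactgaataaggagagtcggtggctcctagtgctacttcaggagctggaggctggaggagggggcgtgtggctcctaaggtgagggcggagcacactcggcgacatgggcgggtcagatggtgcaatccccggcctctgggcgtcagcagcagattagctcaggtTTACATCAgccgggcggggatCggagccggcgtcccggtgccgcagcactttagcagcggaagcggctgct
Psat1 (chr1:222645359-222645658, minus strand): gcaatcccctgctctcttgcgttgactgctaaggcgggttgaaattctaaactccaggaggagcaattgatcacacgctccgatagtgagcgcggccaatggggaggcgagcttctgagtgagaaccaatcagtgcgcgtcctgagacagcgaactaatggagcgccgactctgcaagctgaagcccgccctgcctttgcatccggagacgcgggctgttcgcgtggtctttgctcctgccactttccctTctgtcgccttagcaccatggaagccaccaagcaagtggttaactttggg

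The match lies from 167 to 160 bases before the start in Chac1 and from 21 to 14 bases before it in Trib3. Chac1 was the lower and Trib3 the higher of the pair in siHsc70, as given below. A match is a description of the letters in the window and does not show that a factor was bound there. A window without a match does not show that the gene lacks the element.

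Of the 10 members, 0 reached a 2-fold difference between the libraries, beside 7.43% of the 13518 measured genes (2.29% higher and 5.14% lower in siHsc70). A difference here is the log2(CPM + 1) value of siHsc70 less that of siSCR, and 2-fold means a difference of 1 or more in size. The folds printed for single genes are ratios of CPM without the added 1. A gene printed at 2.00-fold or slightly above can therefore miss the rule or lie at its edge. With these shares, a count of 0 among 10 genes does not set the members apart. The members' differences ran from -0.48 (Psat1) to 0.56 (Trib3), a range that held 74.0% of all measured genes. Of the members, 5 were higher and 5 lower in siHsc70, and 0 reached 1.5-fold, a size passed in either direction by 21.7% of measured genes and upwards by 9.65%. The median of the 10 differences was 0.09, against -0.0034 over all measured genes. The median size of a difference, without its sign, was 0.26 for the members and 0.28 for all measured genes, and 0.23 for the 6028 measured genes within the members' range of mean CPM.

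**Figure D1:**
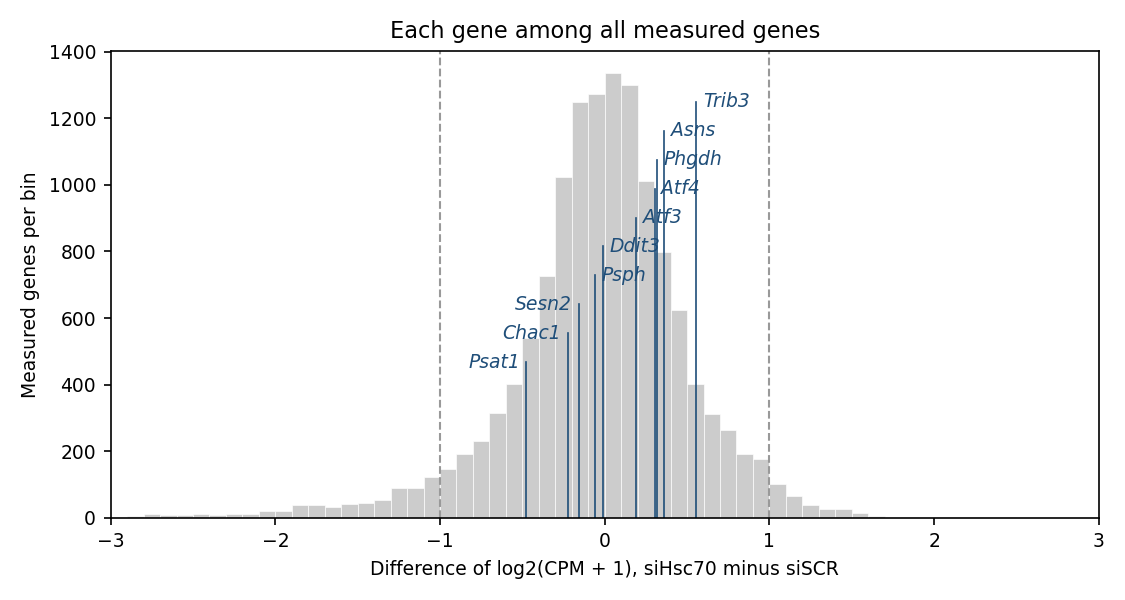
Histogram of the difference of log2(CPM + 1), siHsc70 minus siSCR, over the 13518 measured genes in bins of 0.1 (21 genes beyond 3 in either direction are not shown), with a blue line for each of the 10 members and dashed lines at the 2-fold rule. The members sit between -0.48 and 0.56, within the bulk of the genes.

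Levels were compared between genes in TPM, the deposited unit that is scaled for transcript length. Atf4 was the most abundant member in both libraries, at 672 TPM in siSCR and 753 TPM in siHsc70, above 98.5% and 98.7% of measured genes. Atf3 was the least abundant, at 39.1 and 40.6 TPM, and still above 61.5% and 66.0% of measured genes. In siSCR the order was Atf4, Phgdh, Asns, Sesn2, Ddit3, Psat1, Psph, Chac1, Trib3 and Atf3. Neighbours whose 95% Poisson intervals overlapped in that library were Phgdh and Asns, Ddit3 and Psat1, and Psph and Chac1. In siHsc70 the order was Atf4, Asns, Phgdh, Ddit3, Sesn2, Psph, Psat1, Trib3, Chac1 and Atf3. There the intervals overlapped for Asns and Phgdh, for Ddit3 and Sesn2, and for each neighbouring pair from Psph to Chac1. The members together made up 1753 TPM in siSCR and 1804 TPM in siHsc70.

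**Figure D2:**
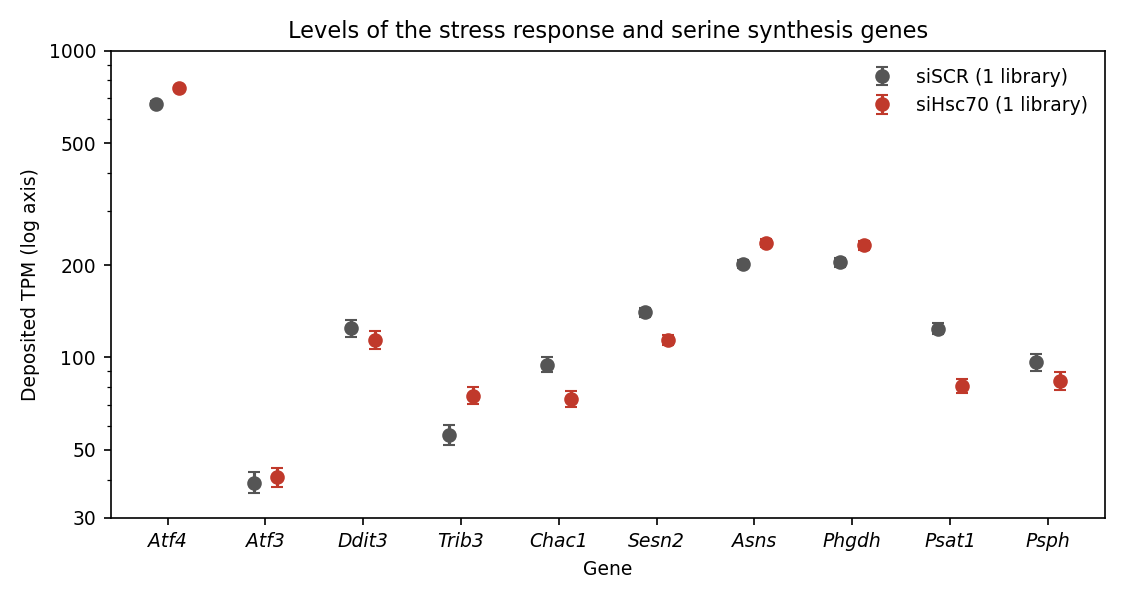
Deposited TPM (log axis) of each member in the siSCR library (grey) and the siHsc70 library (red), with bars for 95% Poisson intervals of the counts, which cover counting error only. Atf4 is the highest in both libraries at 672 and 753 TPM, and the largest gaps between the libraries are those of Psat1 and Trib3.

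Among the transcription factors, Atf4 was at 436 CPM in siSCR (95% Poisson interval 427 to 445) and at 539 CPM in siHsc70 (528 to 549). It was 1.24-fold higher in siHsc70, with a 95% exact (Clopper-Pearson) interval from the reads of both libraries of 1.20 to 1.27. This interval, here called the counting interval, covers counting error only, and 46.1% of measured genes lay further from 0 than Atf4. Atf3, a stress-induced factor of the same bZIP family and a target of ATF4, was at 34.3 CPM (siSCR) and 39.3 CPM (siHsc70), 1.15-fold higher (1.03 to 1.28).

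Ddit3 encodes CHOP, the factor that links prolonged stress to cell death. It was at 48.7 CPM in siSCR (45.6 to 51.9) and 48.3 CPM in siHsc70 (45.2 to 51.6), and its ratio of 0.992 had a counting interval, 0.904 to 1.09, that included 1. The counts of Ddit3 were not whole: 936.61 in siSCR and 869.15 in siHsc70. Added to those of Mars1, its neighbour in GRCr8 whose annotated end overlaps that of Ddit3, they came to 5686 and 5814 exactly, so reads of these genes may have been divided between them. Mars1 encodes the methionyl-tRNA synthetase, was named after its values were seen, and was 1.11-fold higher (1.07 to 1.16). The ratio of the 2 genes' summed counts was 1.09 (1.05 to 1.13), a difference of 0.13, against -0.01 for Ddit3 alone. Most reads of the sum were assigned to Mars1 (4749.39 in siSCR and 4944.85 in siHsc70), so the sum is not a value of Ddit3. The counts of Asns and Atf3 were not whole either, and the other 7 members had whole counts in both libraries.

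The feedback and effector genes were on both sides of 0. Trib3, which encodes a pseudokinase that restrains ATF4 and AKT, was at 36.7 CPM in siSCR (34.1 to 39.6) and 54.5 CPM in siHsc70 (51.1 to 58.0). It was 1.48-fold higher (1.34 to 1.64), the member furthest from 0, and 23.3% of measured genes lay further out. Chac1 encodes an enzyme that breaks down glutathione, and it was 1.17-fold lower (1.08 to 1.27), at 68.6 CPM (siSCR) and 58.6 CPM (siHsc70). Sesn2, whose product senses leucine and restrains mTORC1, was 1.12-fold lower (1.06 to 1.17), at 178 CPM (siSCR) and 159 CPM (siHsc70). Trib3 and Chac1 thus differed in opposite directions: Trib3 was at 0.589 of the TPM of Chac1 in siSCR and at 1.02 in siHsc70. The ratio of their counts was 1.74 times as high in siHsc70 (counting interval 1.53 to 1.98), a value that no scaling of the libraries alters. Ratios between pairs of other genes were not computed, so this pair and those below have no background.

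Asns, which encodes the enzyme that makes asparagine from aspartate, was at 203 CPM in siSCR (197 to 210) and 261 CPM in siHsc70 (254 to 269). It was 1.28-fold higher (1.23 to 1.34), and 39.7% of measured genes lay further from 0.

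The 3 enzymes of serine synthesis did not differ in the same direction. Phgdh, the enzyme gene at the entry to the pathway, was at 173 CPM in siSCR (167 to 179) and 217 CPM in siHsc70 (210 to 223), 1.25-fold higher (1.19 to 1.31). Psat1, encoding the transaminase of the middle step, was at 118 CPM in siSCR (114 to 123) and 84.9 CPM in siHsc70 (80.6 to 89.2), 1.39-fold lower (1.31 to 1.49), and 28.8% of measured genes lay further from 0. Psph, encoding the phosphatase that releases serine, was at 50.2 CPM (siSCR) and 48.1 CPM (siHsc70), and its ratio of 0.959 had a counting interval, 0.874 to 1.05, that included 1. On the TPM scale Phgdh was 1.65 times the level of Psat1 in siSCR and 2.88 times in siHsc70. The count ratio of Phgdh to Psat1 was 1.74 times as high in siHsc70 (1.61 to 1.89), that of Psph to Psat1 1.34 times (1.193 to 1.499) and that of Phgdh to Psph 1.30 times (1.17 to 1.45). Each of the 3 enzymes thus differed from the others by more than counting error, again independently of the scaling. Phgdh is also known to be abundant in astrocytes. The astrocyte list had a median difference of 0.02 over 11 measured genes, of which 7 were higher and 4 lower in siHsc70, and its summed level was lower in siHsc70, as given above. The genes furthest out were Aqp4, a water channel gene, 4.13-fold lower (3.69 to 4.64), and Gfap, a filament gene, 2.12-fold lower (2.08 to 2.17), and on the other side Aldh1l1, a folate enzyme gene, 1.61-fold higher (1.42 to 1.84). These 3 were picked out with their values known. The part of astrocytes in the Phgdh difference was not tested.

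**Figure D3:**
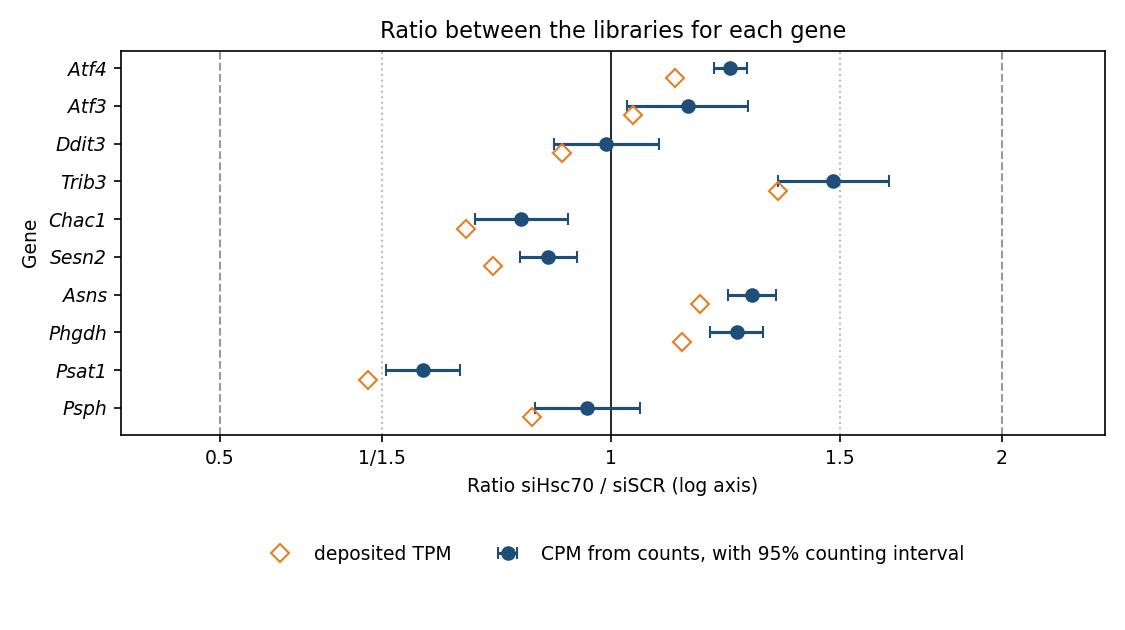
Ratio of siHsc70 to siSCR (log axis) for each member, from scaled counts with 95% counting intervals (blue) and from the deposited TPM (orange diamonds), with dotted lines at 1.5-fold and dashed lines at 2-fold. Trib3 at 1.48 and Psat1 at 0.717 are the outermost, and the intervals of Ddit3 and Psph cross 1.

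Of the 10 counting intervals, 8 excluded 1. The share of all measured genes whose interval excludes 1 was not counted, so this count does not set the members apart. The members were also set against Atf4 within each library. The count ratios of Phgdh, Asns and Atf3 to Atf4 were 1.01 (0.957 to 1.07), 1.04 (0.987 to 1.09) and 0.928 (0.83 to 1.04) times those in siSCR, all with intervals that included 1. Trib3 was 1.20-fold higher relative to Atf4 (1.08 to 1.33). The other 5 were lower relative to Atf4: Psat1 1.72-fold (1.60 to 1.85), Chac1 1.45-fold (1.33 to 1.58), Sesn2 1.38-fold (1.30 to 1.46), Psph 1.29-fold (1.17 to 1.42) and Ddit3 1.25-fold (1.13 to 1.37). These ratios need no scaling of the libraries.

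Scaling mattered for members near 0. With the deposited TPM the median of all measured genes was -0.13, and the members' median was -0.03. Relative to that shift the members kept the positions given above, with Trib3 at 0.55, Asns at 0.36, Phgdh at 0.31, Atf4 at 0.29, Atf3 at 0.19, Ddit3 at 0.01, Psph at -0.07, Sesn2 at -0.17, Chac1 at -0.23 and Psat1 at -0.48. Without regard to the shift, Psat1 was 1.54-fold lower in TPM, the 1 member past 1.5-fold on that scale. With upper quartile scaling of the counts Trib3, at 0.62, was the 1 member past 1.5-fold.

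Upstream of ATF4, the 4 eIF2 kinase genes differed by less than 1.3-fold. Eif2ak1 (HRI, the heme-regulated kinase) was at 64.0 CPM (siSCR) and 62.7 CPM (siHsc70), and Eif2ak3 (PERK, the kinase of the endoplasmic reticulum) at 46.0 and 44.5 CPM, both within counting error. Eif2ak2 (PKR, the kinase activated by double-stranded RNA) was at 68.3 and 74.2 CPM, and Eif2ak4 (GCN2, the kinase that senses uncharged tRNA) at 33.3 and 26.7 CPM, 1.24-fold lower (1.10 to 1.40). Of 21 measured genes of the kinases, eIF2, eIF2B and the eIF2 phosphatase, 0 reached 2-fold in either direction, and the median was -0.03. The shares over all measured genes, 2.29% higher and 5.14% lower, are the background for this and each list count below. Ppp1r15a, encoding GADD34, the stress-induced subunit that directs the phosphatase to eIF2, was the furthest from 0, at 185 CPM (siSCR) and 335 CPM (siHsc70) (1.81-fold higher, 1.73 to 1.88). The eIF2B subunit genes differed in both directions, with Eif2b1 1.54-fold lower (1.40 to 1.69) and Eif2b2 1.38-fold higher (1.275 to 1.496).

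The list of bZIP partners and relatives of ATF4, which also held Nupr1, had a median of 0.16 over 19 measured genes. Of them, 1 gene passed 2-fold upwards and 0 downwards, beside 2.29% and 5.14% of all measured genes. The higher one was Nupr1, at 3.64 CPM (siSCR) and 14.7 CPM (siHsc70) (4.04-fold, 3.09 to 5.33, from 70 and 264 counts). Nupr1 is a target of ATF4 and encodes a small stress-induced chromatin protein, not a bZIP factor. The 1 gene past the rule was thus not a bZIP gene. Nfe2l2, encoding the antioxidant factor NRF2, was 1.87-fold higher (1.80 to 1.94), and Cebpa, a C/EBP gene, was 1.78-fold higher (1.60 to 1.98). Jdp2, encoding a repressor of AP-1 sites, was 1.87-fold lower (1.60 to 2.18).

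Of 24 measured genes reported elsewhere as targets of ATF4 or CHOP, other than the members, 3 passed 2-fold upwards and 0 downwards. The shares over all measured genes were 2.29% and 5.14%, and the median of the 24 was 0.10. Slc7a11, encoding the cystine transporter, was at 677 CPM (siSCR) and 1528 CPM (siHsc70), 2.26-fold higher (2.21 to 2.30). Cth, encoding the enzyme that makes cysteine from cystathionine, was 2.59-fold higher (2.26 to 2.97), at 15.3 and 39.5 CPM. Its counts were not whole and added up to 390 and 951 with those of a row named LOC103691744, and the sum was 2.61-fold higher (2.32 to 2.94). Tnfrsf10b, a death receptor gene induced by CHOP, was 2.23-fold higher (1.71 to 2.91) from 4.47 CPM. Its difference of 1.00 was at the edge of the 2-fold rule, and it did not pass with a pseudocount of 5, total count or median of ratios scaling, or the deposited TPM or FPKM. On the other side Ddit4, an inhibitor of mTORC1, was 1.83-fold lower (1.68 to 1.99), and Vldlr, a lipoprotein receptor gene, was 1.72-fold lower (1.62 to 1.83).

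The genes that use serine or supply amino acids were also on both sides of 0. Of 24 measured one-carbon and serine-glycine genes, Cth was the 1 past 2-fold, and the median was 0.07. Mat2a, encoding the enzyme that makes S-adenosylmethionine, was 1.64-fold higher (1.56 to 1.73), while Sptlc2, encoding a subunit of the serine palmitoyltransferase that starts sphingolipid synthesis, was 1.59-fold lower (1.46 to 1.74). Of 10 measured amino acid transporters reported elsewhere as ATF4 targets, Slc7a11 was the 1 past 2-fold, and the median was 0.52. Slc7a3, a cationic amino acid transporter gene, and Slc6a9, a glycine transporter gene, were 2.00-fold (1.73 to 2.32) and 1.83-fold (1.73 to 1.93) higher. Lower in siHsc70 were Slc7a1, a transporter gene for cationic amino acids (1.51-fold, 1.44 to 1.58), and Slc7a5, one for large neutral amino acids (1.38-fold, 1.33 to 1.43).

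The 21 measured genes of cytosolic aminoacyl-tRNA synthetases and the tRNA exporter Xpot lay closer together than the other lists, from -0.31 to 0.41, with 0 past 2-fold and a median of 0.03. Qars1 and Nars1, the synthetases for glutamine and asparagine, were 1.33-fold (1.27 to 1.40) and 1.26-fold (1.22 to 1.30) higher. Yars1, the synthetase for tyrosine, was 1.24-fold lower (1.17 to 1.30), and Aars1, the synthetase for alanine, was 1.15-fold lower (1.11 to 1.18).

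For the other arms of the unfolded protein response, governed by ATF6 and XBP1, 0 of 20 measured genes reached 2-fold. The share over all measured genes was 7.43%, and the median of the 20 was 0.10. Dnajb9, a chaperone gene induced by XBP1, and Hspa5, encoding BiP, were 1.54-fold (1.40 to 1.68) and 1.32-fold (1.28 to 1.35) higher, while Sdf2l1 was 1.70-fold lower (1.38 to 2.11). Of 21 measured genes of amino acid sensing upstream of mTORC1, 1 was at least 2-fold higher, and the median was 0.01. It was Castor1, encoding an arginine sensor, at 8.47 CPM (siSCR) and 20.0 CPM (siHsc70) (2.36-fold, 1.95 to 2.85), which did not pass with a pseudocount of 5. The relatives of Sesn2 in that list, Sesn1 and Sesn3, were lower, as Sesn2 was, at 21.2 and 16.5 CPM for Sesn1 (1.28-fold, 1.10 to 1.49) and 396 and 340 CPM for Sesn3 (1.16-fold, 1.12 to 1.20). The relatives of Trib3 were Trib1, 1.14-fold higher (0.969 to 1.33), and Trib2, 1.69-fold lower (1.62 to 1.77), at 293 CPM (siSCR) and 173 CPM (siHsc70).

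Glutathione, the substrate of CHAC1, is made from cysteine, glutamate and glycine. Of 12 measured glutathione genes other than Chac1, 2 passed 2-fold upwards and 0 downwards, beside 2.29% and 5.14% of all measured genes. The median of the 12 was 0.47. The 2 genes were Gss, encoding glutathione synthetase, 2.30-fold higher (2.16 to 2.45), and Gpx1, encoding a glutathione peroxidase, 2.31-fold higher (2.19 to 2.43). Chac2, the relative of Chac1 and named after its values were seen, was at 9.72 CPM (siSCR) and 10.3 CPM (siHsc70), within counting error. Over the 10 lists other than the members, 7 of 170 measured genes passed 2-fold upwards (4.12%) and 0 downwards, beside 2.29% and 5.14% of all measured genes. Some genes, among them Slc7a11 and Cth, stand in more than 1 list and were counted once here. The count downwards was 2 with the deposited TPM (Jdp2 and Ddit4) and 1 with the deposited FPKM (Jdp2). With the deposited TPM, 3 of the 9 larger lists kept a median above 0, at 0.38 (transporters), 0.35 (glutathione) and 0.07 (bZIP list with Nupr1). The other 6 lay between -0.16 and -0.04. On that scale the median of all measured genes was itself -0.13, and the eIF2 list was already below 0 in the main analysis, at -0.03.

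**Figure D4:**
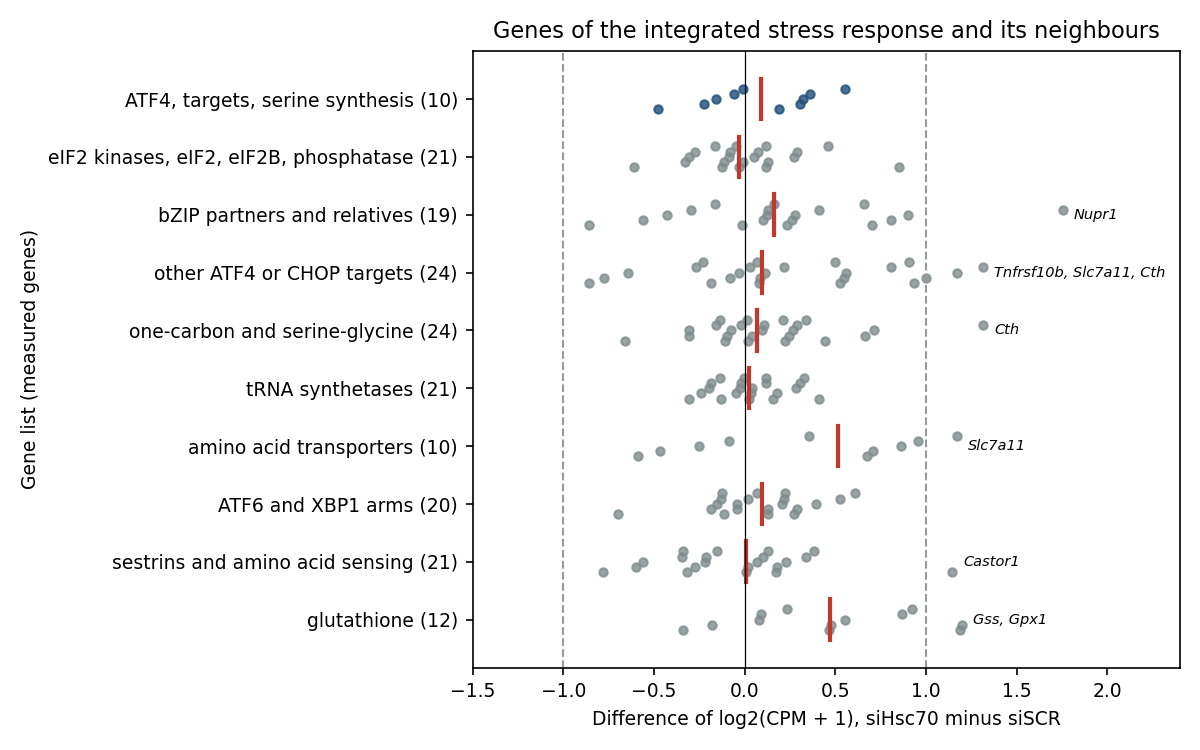
Difference of log2(CPM + 1), siHsc70 minus siSCR, for every measured gene of the 10 members (blue) and of 9 related lists (grey), with the number of measured genes in brackets, a red bar at each median and dashed lines at the 2-fold rule; genes past the rule are named. The synthetase list is the narrowest, and the amino acid transporter and glutathione lists have medians of 0.52 and 0.47.

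The CARE core TGATGNAA was present in 7 of 17 synthetase windows (41.2%), 4 of 20 windows of the other ATF4 or CHOP targets (20.0%) and 3 of 9 transporter windows (33.3%), beside 3.98% of all windows. That share is over all 33469 windows and is not limited to measured genes. The target and transporter lists were made of genes reported elsewhere as targets of ATF4 or CHOP. The CARE core was present in 0 of 19 one-carbon and serine-glycine windows and 0 of 9 glutathione windows. In all, 20 genes of the lists, members included, held it, and 19 of them were measured. Of these 19, 8 were higher and 11 lower in siHsc70, with a median difference of -0.08 and a range from -0.86 to 1.76. The 128 measured genes whose windows lacked it had a median of 0.05 and a range from -0.86 to 1.32. The same letters stood in windows of genes that differed in opposite directions. All 13518 measured genes were also split, 6724 higher and 6794 lower, so this does not set the genes with the match apart. The 28 bases around the match are given for the measured genes with the 3 highest and the 3 lowest differences (22 for Yars1, where the window ends), chosen after the values were seen, each read 5′ to 3′ on the strand where the match reads TGATGNAA, with the match in capitals.
Nupr1 (chr1:190645939-190645966, plus strand): aagccctgtcTGATGCAAtctggccttt
Pck2 (chr15:32997604-32997631, minus strand): gcaaggatacTGATGTAActttgaaggc
Trib3 (chr3:161275537-161275564, plus strand): cccgcccggcTGATGTAAacctgagcta
Yars1 (chr5:146820191-146820212, plus strand): cgagctcagcTGATGCAAcctg
Slc7a1 (chr12:11664448-11664475, plus strand): ggcgcgcggcTGATGAAAccggctcgga
Jdp2 (chr6:110993565-110993592, plus strand): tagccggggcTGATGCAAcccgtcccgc

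In Nupr1, with a difference of 1.76, the match lies from 55 to 48 bases before the start. In Jdp2, with a difference of -0.86, it lies from 16 to 9 bases before the start, and its 8 letters are those found in Nupr1. Pck2, which encodes a mitochondrial enzyme that makes phosphoenolpyruvate, was 1.95-fold higher (1.73 to 2.20), at 22.7 CPM (siSCR) and 44.3 CPM (siHsc70).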

How the data were processed

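One table with a row for each of 18049 genes was used, with 6 columns of values tied to the 2 samples by the siRNA in their names. The estimated counts are deposited read counts per gene, and 26.5% of the siSCR and 26.7% of the siHsc70 values were not whole. The other deposited columns are TPM and FPKM, per the file headers, units scaled for transcript length and library size. No aligner, quantification program, annotation or strand setting is recorded in the labels. The build mm39 is named in the submitters' processing notes, although the table carries rat gene IDs, of which 16783 were found in RefSeq (GRCr8) and took its current symbols.

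Counts were rounded and scaled with TMM factors (edgeR 4.0.16, R 4.3.3; 1.01 for siSCR, 0.992 for siHsc70). The pseudocount, minimum mean, fold rule, intervals (scipy 1.17.1) and promoter search are given in the report. A gene with 0 counts could have had a level of up to 3 counts, which is 0.156 CPM in siSCR and 0.167 CPM in siHsc70. The intervals cover counting error only. PCR copies are not independent molecules and reads may have been divided between genes, so the intervals may be too narrow even for that error. The procedure was tested on simulated Poisson counts, which hold no PCR copies. From each list up to 3 higher and 3 lower genes were eligible to be named, besides the members, the eIF2 kinases, the sestrin and tribbles relatives and Hspa8. The members and the gene lists were chosen with earlier results of these data known. Likeness of pattern to other genes was not computed, since 2 libraries give 1 difference per gene.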

Additional observations from a re-analysis of the deposited data

How the results depend on the processing

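The alternatives were pseudocounts of 0.1 and 5, no minimum mean or one of 5 CPM, total count, upper quartile and median of ratios scaling, the deposited TPM and FPKM, pseudogene rows added to their gene, and a 1.5-fold rule. The sum of Ddit3 and Mars1 was added after the data had been seen. Under all of these, 0 members passed the 2-fold rule in either direction. At 1.5-fold, 0 members passed in the main analysis, Trib3 passed under upper quartile scaling and Psat1 with the deposited TPM. Of the 10 members, 8 kept their sign throughout. Under upper quartile scaling Ddit3 turned to 0.05 and Psph to 0.0022. The sum of Ddit3 and Mars1 was at 0.13, but most of its reads were assigned to Mars1, so it is not a value of Ddit3. The ranges of the outermost members were 0.42 to 0.62 for Trib3 and -0.61 to -0.41 for Psat1. The members' median, 0.09, was -0.034 with the deposited TPM, where the median of all genes was -0.13. Genes at least 2-fold higher numbered 310 in the main analysis, 518 with a pseudocount of 0.1, 132 with 5, 189 with the deposited TPM and 202 with the deposited FPKM. Those at least 2-fold lower numbered 695, 898 with a pseudocount of 0.1, 417 with 5, 795 with the deposited TPM and 515 with the deposited FPKM. At 1.5-fold, 1304 genes were higher and 1626 lower. Of the 170 measured list genes, between 5 and 8 passed 2-fold upwards under the scaling, pseudocount and unit alternatives, and Slc7a3 was the gene gained under upper quartile scaling. No paired analysis was possible because each group has 1 library.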
